A study of Macaca mulatta with 16 samples.

Results

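The fetal lung 5 days after intraamniotic LPS was compared with the lung of untreated fetuses near the end of gestation, to describe what still separates an LPS-exposed preterm lung from a term lung. The samples were chosen by their labels alone and came from 5 of the 16 rhesus macaques of the study, with 1 lung library for each animal. The LPS animals were 239, 240 and 242, which were given 1 mg of LPS, a bacterial cell wall component, at 129, 128 and 126 days of gestation and were delivered at 134, 133 and 131 days. They received no second treatment. The term controls were the untreated animals 200 and 201, delivered at 156 and 157 days, and they are all the term animals of the study. The 4 preterm controls, untreated and delivered at 131 to 135 days, are given beside the results because they share the age of the LPS animals. The remaining 7 animals were 4 delivered 16 hours after LPS and 3 given LPS with betamethasone acetate (Beta-Ac). They entered only the scaling, the filter on low counts and the estimate of the spread between animals. The LPS animals differed from the term controls both in age and in exposure, and from these groups alone the effects of age and exposure cannot be told apart. A single dose of LPS is also a limited model of an infection that goes on in the amniotic cavity.

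In the last weeks before birth the walls between the air spaces become thin, type 2 cells of the alveolar epithelium fill with surfactant, type 1 cells spread over the capillaries, and cell division and deposition of matrix decline. Fetal exposure to LPS brings inflammatory cells into the lung and is known to advance several of these steps, which is why a lung exposed before term is set against a term lung. Complement, a cascade of blood and tissue proteins that mark microbes for removal, and chemokines, which attract leukocytes, belong to the response to LPS.

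The 5 libraries held 20214144 to 27616930 counts. Values are given as CPM, counts brought to a common library size, after TMM scaling, which corrects for differences in composition between libraries, and fitted differences are on the log2 scale. The markers of lung epithelium were present in all 5 animals. SFTPC, the surfactant protein made by type 2 cells, had between 4990.3 and 7546 CPM, and NKX2-1, the transcription factor of lung epithelium, had between 103 and 156 CPM. Over the 19199 genes tested, the median absolute difference between the 2 term controls was 0.321 log2 units, against 0.181 to 0.248 between LPS animals and 0.266 to 0.391 between an LPS animal and a term control. Term control 200 was thus closer to each LPS animal than to term control 201. Several gene lists differed widely between the 2 term controls. The 22 tested genes of motile cilia, the beating hairs of airway cells, summed to 518 CPM in term control 200 and 143 CPM in term control 201, with 209.7 to 428 CPM in the LPS animals. The 19 tested genes of alveolar macrophages summed to 3023 and 562 CPM in the term controls, with 1001 to 1035 CPM in the LPS animals. The 9 tested Y-linked genes summed to 3.75 CPM in LPS animal 242 and 2.76 CPM in term control 200, against 870.4 to 1032 CPM in the other 3 animals, so sex differed within both groups. How far these differences contribute to the results was not tested.

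Few single genes passed the limits of the test between the 2 groups. A gene was called at a Benjamini-Hochberg adjusted p under 0.05 and a difference of at least 2-fold in the limma fit. Of 19199 genes, 6 were called higher with LPS and 6 lower, which is 0.0313% of the tested genes in each direction and 0.0625% in all. The same limits called 4.83% of the genes between LPS and preterm controls and 2.07% between term and preterm controls. The median standard error of a difference was 0.255 log2 units between LPS and term, 0.213 between LPS and preterm and 0.242 between term and preterm, so that small differences from term could not be resolved with 3 and 2 animals. An unadjusted p under 0.05 by limma was reached by 11% of the genes (2109), a limit that genes with no difference pass at a rate of 0.05. Of these 2109 genes, 211 were at least 2-fold higher and 273 at least 2-fold lower with LPS. In 14% of the genes all 3 LPS animals lay above both term controls, and in 16.5% they lay below both. The median difference over all genes was -0.0087, with 9394 genes above 0 and 9805 below. A single gene tested by exact permutation of 3 against 2 animals has 10 regroupings and cannot reach a p under 0.05. Its smallest two-sided p, taken as the one-sided p multiplied by 2, was 0.2. A single regrouping of the 10 puts all 3 LPS animals above both term controls, and a single one puts them below both. Some genes would therefore lie apart with no difference between the groups.

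The 12 calls lay close to the threshold and most were lost when 1 animal was left out. The adjusted p of the 12 genes, all from limma, lay between 0.0382 and 0.0428 and ranged from 0.00227 to 0.457 over 14 alternative settings, in which the sign of all 12 differences was kept. With 1 animal left out at a time, the log2 difference of C3 lay between 1.37 and 1.84, that of HSPB8 between 0.88 and 1.57, that of PALS2 between -1.53 and -1.36, that of ANGPT2 between -1.60 and -1.26 and that of MPPED1 between -1.97 and -1.66. No gene was called without LPS animal 239 or without LPS animal 240, although 1652 and 1507 genes then had an unadjusted p under 0.05. Without LPS animal 242 the called genes were C3 and APOLD1. Without term control 200, 4 genes were called, of which CCL19 was among the 12, and without term control 201, 11 were called, of which C3 and HSPB8 were among the 12. Scaling by library totals alone gave 6 higher and 10 lower genes in place of 6 and 6.

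**Figure D1:**
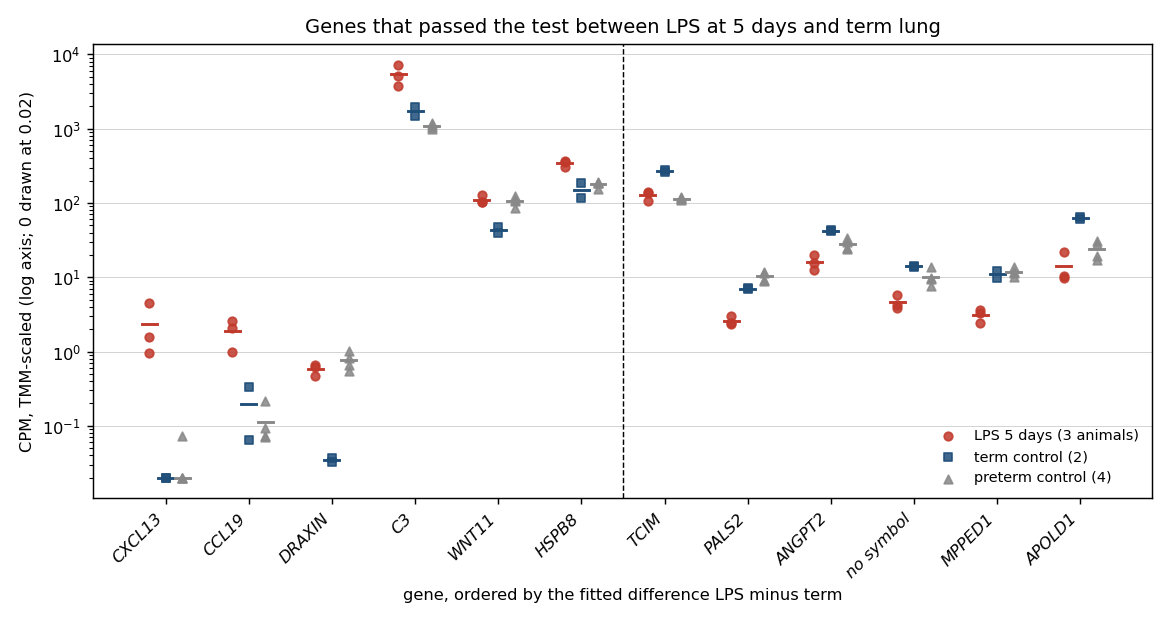
Each point is the TMM-scaled CPM of a gene in 1 animal, on a log axis, and short bars are group means; genes left of the dashed line were called higher with LPS and those right of it lower. The 3 LPS animals lie apart from both term controls in all 12 genes, while the preterm controls lie at the LPS level in genes such as WNT11 and TCIM and at the term level in genes such as MPPED1 and CXCL13.

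Complement C3 (ENSMMUG00000008693), the central component on which the complement pathways converge, rose and was the most abundant of the called genes in the LPS lungs. It had 7279, 5101 and 3758 CPM in LPS animals 239, 240 and 242, and 1467 and 1966 CPM in term controls 200 and 201. The lowest LPS animal lay well above the higher term control. The preterm controls had 998 to 1194 CPM, so both the term controls and the LPS animals lay above them. C3 was 3.05-fold higher with LPS than at term (log2 difference 1.61, SE 0.22, 95% interval 1.14 to 2.08, adjusted p = 0.0382 by limma), and this call was made in 9 of the 14 alternatives.

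Other genes of the cascade had higher values in the LPS animals as well, but C3 was the only called gene of the 19 tested complement genes. Of these, 15 had a difference above 0 and 4 below, with a median of 0.45 against -0.0087 over all genes. The median lay between 0.28 and 0.48 when 1 animal was left out and at 0.37 with library totals alone. In 9 of the 19 genes all LPS animals lay above both term controls, and in 1, the membrane regulator CD46, below both, against 14% and 16.5% of all genes. The mean log2 CPM of the list was 6.48, 6.31 and 6.35 in the LPS animals, 5.95 and 5.93 in the term controls and 5.32 to 5.58 in the preterm controls.

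CFB, the protease subunit of the alternative pathway, had 622, 631 and 341 CPM with LPS and 222 and 210.4 CPM at term (log2 difference 1.24, adjusted p = 0.207 by limma). C1S, a protease of the classical pathway, had 522, 633 and 384 CPM with LPS and 204 and 245 CPM at term (log2 difference 1.17, adjusted p = 0.183 by limma). Its partner C1R was at 391, 383 and 240.0 CPM against 141 and 168 CPM (log2 difference 1.10). All LPS animals lay above both term controls in these 3 genes. SERPING1, the inhibitor of C1R and C1S, had 335, 328 and 303 CPM with LPS and 165 and 166 CPM at term (log2 difference 0.96), and C5, which starts the terminal pathway, had 399, 438 and 444 against 165 and 305 CPM (log2 difference 0.93, adjusted p = 0.199 by limma). The preterm means of C1R, SERPING1 and C5 were 146, 161 and 155 CPM, close to the lower term control, whereas that of CFB was 88 CPM. The membrane regulator CD59 differed by 0.01 log2 units.

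**Figure D2:**
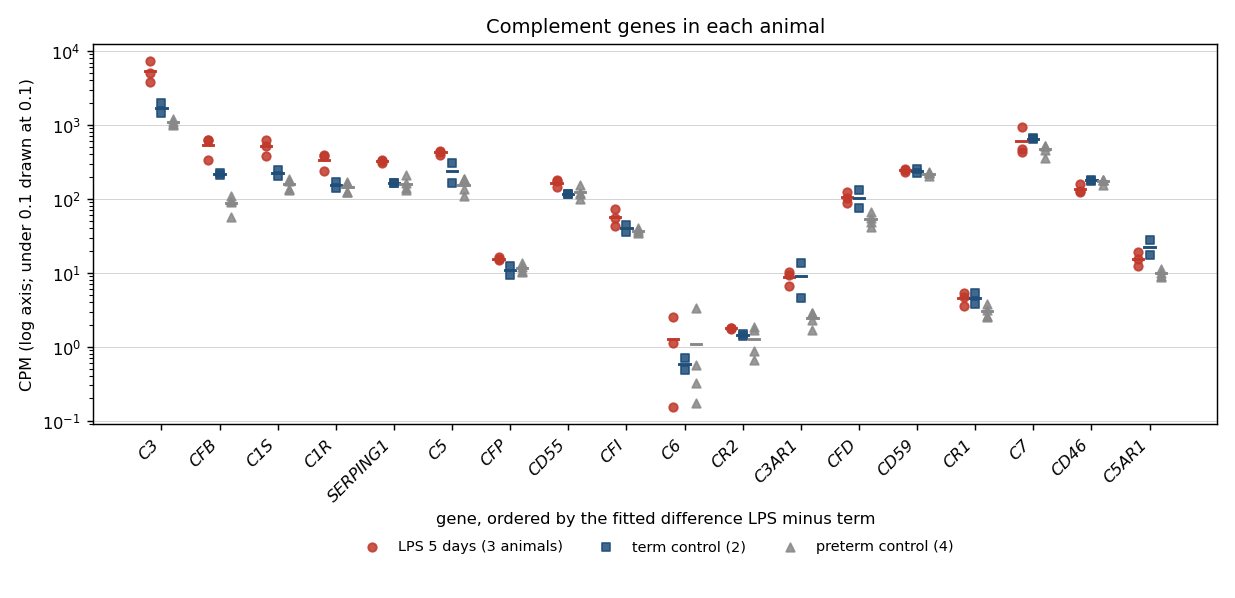
The TMM-scaled CPM of 18 of the 19 tested complement genes in each animal is drawn on a log axis, with group means as short bars and genes ordered by the difference LPS minus term. From C3 to C5 the LPS animals lie above both term controls, and from CFD to CR1 the groups overlap.

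The chemokines CXCL13 and CCL19, which draw B cells and, for CCL19, T cells and dendritic cells into lymphoid tissue, rose from levels near 0. CXCL13 (ENSMMUG00000023186) had 4.46, 0.959 and 1.57 CPM in the LPS animals and no count in either term control. In the preterm controls it had 0.0727 CPM in animal 209 and no count in the other 3. Against a floor of 3 counts for each term library, or 0.11 CPM, the LPS mean of CXCL13 was at least 21.1-fold higher (adjusted p = 0.0398 by limma, called in 6 of the 14 alternatives). That mean rests largely on LPS animal 239, which had 123 counts against 25 and 33 in the other two, and without it the LPS mean was at least 11.4-fold higher.

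CCL19 (ENSMMUG00000016531) had 2.07, 2.57 and 0.996 CPM with LPS and 0.331 and 0.0646 CPM at term, from 9 and 2 counts, so that all LPS animals lay above both term controls. The ratio of summed counts was 10.3, with a counting interval of 5.57 to 21 that leaves out the spread between animals (adjusted p = 0.0398 by limma). Its preterm mean was 0.113 CPM, within the term range. CCR7, the receptor of CCL19 on T cells and mature dendritic cells, was lower with LPS, at 6.31, 3.88 and 3.89 CPM against 11.7 and 6.98 CPM, and was not called (log2 difference -0.97, adjusted p = 0.316 by limma). CCL19 and DRAXIN fell outside the rule for named genes because of their low counts at term and are described because they were called.

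No other gene of the list of inflammatory cytokines and chemokines was called. Of the 26 tested genes of the list, 17 were above 0 and 9 below, with a median of 0.17 that ranged from -0.09 without term control 201 to 0.50 without term control 200, and CXCL13 was its only called gene. All LPS animals lay above both term controls in 6 of the 26 and below both in 6, against 14% and 16.5% of all genes. CXCL6, which attracts neutrophils, had 7.44, 7.94 and 5.46 CPM with LPS and 1.29 and 1 CPM at term (log2 difference 2.52, adjusted p = 0.209 by limma). IL1RN, the antagonist of the IL-1 receptor, lay on the other side, at 11.2, 19.9 and 13.8 against 52.2 and 33 CPM (log2 difference -1.51), as did the monocyte chemokine CCL8, at 0.762, 1.88 and 1.9 against 4.82 and 8.4 CPM (log2 difference -2.13). In these 3 genes the groups did not overlap.

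Of the cytokines best known from LPS exposure, IL1B and CXCL8 overlapped between the groups and IL6 did not. IL1B was at 6.13, 7.25 and 7.26 CPM with LPS and at 1.99 and 7.08 CPM at term, with a 95% interval of the log2 difference from -0.55 to 2.26. CXCL8 had 5.62, 3.61 and 5.08 CPM against 8.31 and 2.2 CPM, with an interval of -1.15 to 1.41. The term controls lay on both sides of the LPS animals in CXCL8. IL6 was low in all 5 animals and lower in each LPS animal than at term, at 0.327, 0.537 and 0.0949 against 1.03 and 0.743 CPM, and was not called (log2 difference -1.47, interval -2.86 to -0.08, adjusted p = 0.428 by limma). CCL2, a monocyte attractant, had an interval of -0.68 to 1.40 and TNF a difference of 0.02. The preterm means of IL1B, CXCL8, IL6 and CCL2 were 1.07, 0.204, 0.0936 and 8.7 CPM. In these genes the means of both the LPS animals and the term controls lay above the preterm mean. Overlap with term is thus not a return to the level of untreated lungs of the same age.

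Genes of the NF-kB response, the signalling route that LPS switches on, were above 0 in 17 of 23 cases, with a median of 0.23 (0.18 to 0.39 with 1 animal left out) and none called. SOD2, a mitochondrial antioxidant enzyme that NF-kB induces, had 172, 179 and 209 CPM with LPS and 130.1 and 130.4 CPM at term (log2 difference 0.51, adjusted p = 0.282 by limma). TNIP3, an inhibitor of the route, was at 20.2, 14 and 9.25 CPM against 6.1 and 5.95 CPM. Interferon-stimulated genes lay the other way, 6 above and 20 below 0 of 26, with a median of -0.33 that became -0.54 when term control 200 was left out and 0.00 when 201 was, and term control 201 had the highest level of the 5 animals in many of them, such as IFIT1 with 176 CPM against 47.6 to 68.2 CPM in the other 4.

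Markers of neutrophils lay at or below their term level in most genes. The median over 21 tested genes was -0.46 (7 above and 14 below 0, none called), but it was 0.01 without term control 201 and -0.82 when term control 200 was left out, and the mean log2 CPM of the list was 1.54, 1.91 and 1.78 with LPS, 1.76 and 2.42 at term and 0.12 to 0.50 in the preterm controls. S100A9, a calcium-binding protein of neutrophils and monocytes, had 6.57, 20.1 and 26.9 CPM with LPS and 42.6 and 47.8 CPM at term (log2 difference -1.56, adjusted p = 0.342 by limma). CAMP, an antimicrobial peptide of neutrophil granules, was at 1.85, 2.3 and 3.37 against 4.26 and 11.9 CPM. LCN2, an iron-binding protein that epithelium also makes, was above term in each LPS animal, at 147, 199.6 and 83.4 against 44.5 and 82.3 CPM, with its lowest LPS value just over the higher term control. It was not called (log2 difference 1.15, adjusted p = 0.327 by limma). The preterm mean of LCN2 was 8.08 CPM.

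Macrophage markers did not separate the groups in a single direction. The 25 tested genes of monocytes and macrophages had a median of -0.08 (-0.44 when term control 201 was left out, 0.33 when 200 was) and the 19 of alveolar macrophages a median of 0.00, which was 0.95 without term control 200 and -1.03 without term control 201. In term control 200, SPP1, GPNMB and the chitinase CHIT1 had 451, 319.6 and 1121 CPM, against 9.08, 5.24 and 9.41 CPM in term control 201. The LPS animals lay between the term controls in SPP1, at 21.6, 16.5 and 15.8 CPM. MARCO, a scavenger receptor of alveolar macrophages, had 9.12 and 0.162 CPM at term and 1.96, 3.45 and 0.38 CPM with LPS, so its 95% interval ran from -2.64 to 2.67. MRC1, the mannose receptor, was lower in all LPS animals, at 16.4, 10.9 and 20.6 against 40.1 and 28.3 CPM (log2 difference -1.12, adjusted p = 0.398 by limma). In bulk tissue, fewer cells of a type and less RNA per cell cannot be told apart.

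Lymphocyte genes were evenly split, 16 above and 15 below 0 of 31, with none called, and genes of antigen presentation were above 0 in 16 of 20 with a median of 0.19. CD74, the chain that guides peptides to class II molecules, had 569, 614 and 513 CPM with LPS and 448 and 307 CPM at term (log2 difference 0.61, adjusted p = 0.38 by limma). The preterm mean of CD74 was 177 CPM, below both groups.

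WNT11, a Wnt ligand of the developing lung, was called higher than at term and lay at the level of the preterm controls. WNT11 (ENSMMUG00000051614) had 129, 104 and 102 CPM in the LPS animals and 39 and 48.2 CPM in the term controls, while the preterm controls had 85.9 to 124 CPM. The LPS range lay inside or just over the preterm range and did not touch the term range. The log2 difference from term was 1.35 (SE 0.234, adjusted p = 0.0398 by limma, called in 7 of 14 alternatives), and from preterm it was 0.08. DRAXIN (ENSMMUG00000057353), a secreted antagonist of Wnt signalling and guidance cue for axons, showed the same placement at a low level. It had 0.653, 0.614 and 0.474 CPM with LPS, from 18, 16 and 10 counts, and 0.0368 and 0.0323 CPM at term, from 1 count each. The ratio of summed counts was 17.1 with a counting interval of 4.47 to 146, and the preterm mean was 0.766 CPM (adjusted p = 0.0382 by limma).

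HSPB8 (ENSMMUG00000021232), a small heat shock protein that helps to clear misfolded proteins, rose over term and lay above the preterm controls as well. It had 363, 309 and 356 CPM with LPS, 115 and 185 CPM at term and 153 to 193 CPM in the preterm controls. The log2 difference was 1.23 from term (SE 0.204, adjusted p = 0.0398 by limma) and 0.94 from preterm, and it was 0.88 to 1.57 over the alternatives.

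Among the genes called lower with LPS than at term, ANGPT2 and APOLD1 are expressed in endothelium. ANGPT2 (ENSMMUG00000010139), the ligand that loosens vessels by opposing angiopoietin 1 at the receptor TIE2, had 20.1, 12.5 and 15.6 CPM with LPS and 41.8 and 43.1 CPM at term. The preterm controls lay between the groups, at 23.8 to 34 CPM. The log2 difference from term was -1.42 (SE 0.237, adjusted p = 0.0398 by limma, called in 7 of 14 alternatives). APOLD1 (ENSMMUG00000050700), an endothelial gene that answers quickly to stimuli, had 10.4, 9.86 and 22.1 CPM with LPS and 64.8 and 61.1 CPM at term, and 17.3 to 30.4 CPM in the preterm controls. Its log2 difference from term was -2.25 (SE 0.33, adjusted p = 0.0382 by limma, called in 8 of 14 alternatives), the lowest among the called genes. From preterm it was -0.81, while the difference of term from preterm was 1.44.

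Most other endothelial markers did not lie below term with them. Of 24 tested genes of the endothelial list, 20 were above 0 and none was called, with a median of 0.20 that was -0.02 without term control 200, 0.07 without LPS animal 242 and 0.21 to 0.29 with 1 other animal left out. PLVAP, the protein of the diaphragms of fenestrated capillaries, had 18.8, 13.1 and 25.1 CPM with LPS and 5.62 and 4.85 CPM at term, and narrowly missed the threshold (log2 difference 1.80, adjusted p = 0.0739 by limma). Its preterm mean was 15.5 CPM, at the LPS level. CDH5, the cadherin of endothelial junctions, overlapped, with 226, 139.7 and 246 CPM against 84.1 and 179 CPM. TRPC6, a calcium channel of smooth muscle, was at 46.8, 46.2 and 44.5 CPM against 82.6 and 91.2 CPM (log2 difference -0.92, adjusted p = 0.0774 by limma).

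TCIM (ENSMMUG00000045757), a small transcriptional regulator, was called lower than at term and lay at the level of the preterm controls. It had 142, 107 and 135 CPM with LPS, 277 and 259 CPM at term and 111 to 119 CPM in the preterm controls. The log2 difference was -1.08 from term (SE 0.189, adjusted p = 0.0428 by limma, called in 6 of 14 alternatives) and 0.15 from preterm. MPPED1 (ENSMMUG00000022590), a metallophosphoesterase, fell and lay below both control groups. It had 3.27, 3.61 and 2.42 CPM against 9.85 and 12.2 CPM at term and 10.1 to 13.9 CPM in the preterm controls (log2 difference from term -1.82, SE 0.313, adjusted p = 0.0398 by limma). PALS2 (ENSMMUG00000016936), a scaffold protein of cell polarity, lay below both control groups too. It had 2.36, 3.03 and 2.42 CPM against 6.87 and 7.21 CPM at term and 8.97 to 11.6 CPM in the preterm controls (log2 difference from term -1.42). The gene ENSMMUG00000055666, which has no symbol in the annotation used, had 5.84, 3.91 and 4.22 CPM with LPS, 14.4 and 13.9 CPM at term and 7.6 to 13.9 CPM in the preterm controls (log2 difference from term -1.61).

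The preterm controls thus divided the 12 genes. In 4 of them, WNT11, DRAXIN, TCIM and APOLD1, the preterm mean lay nearer to the LPS mean than to the term mean, 2 among the genes higher and 2 among those lower with LPS. In the other 8 the preterm mean lay nearer to term, and in these no LPS animal overlapped with an untreated lung of either age. All 12 genes were called for their difference from term, so this separation follows largely from how the 8 were chosen. ANGPT2 and HSPB8 had preterm means within 1 log2 unit of both groups. This placement is a description of means and carries no test.

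**Figure D3:**
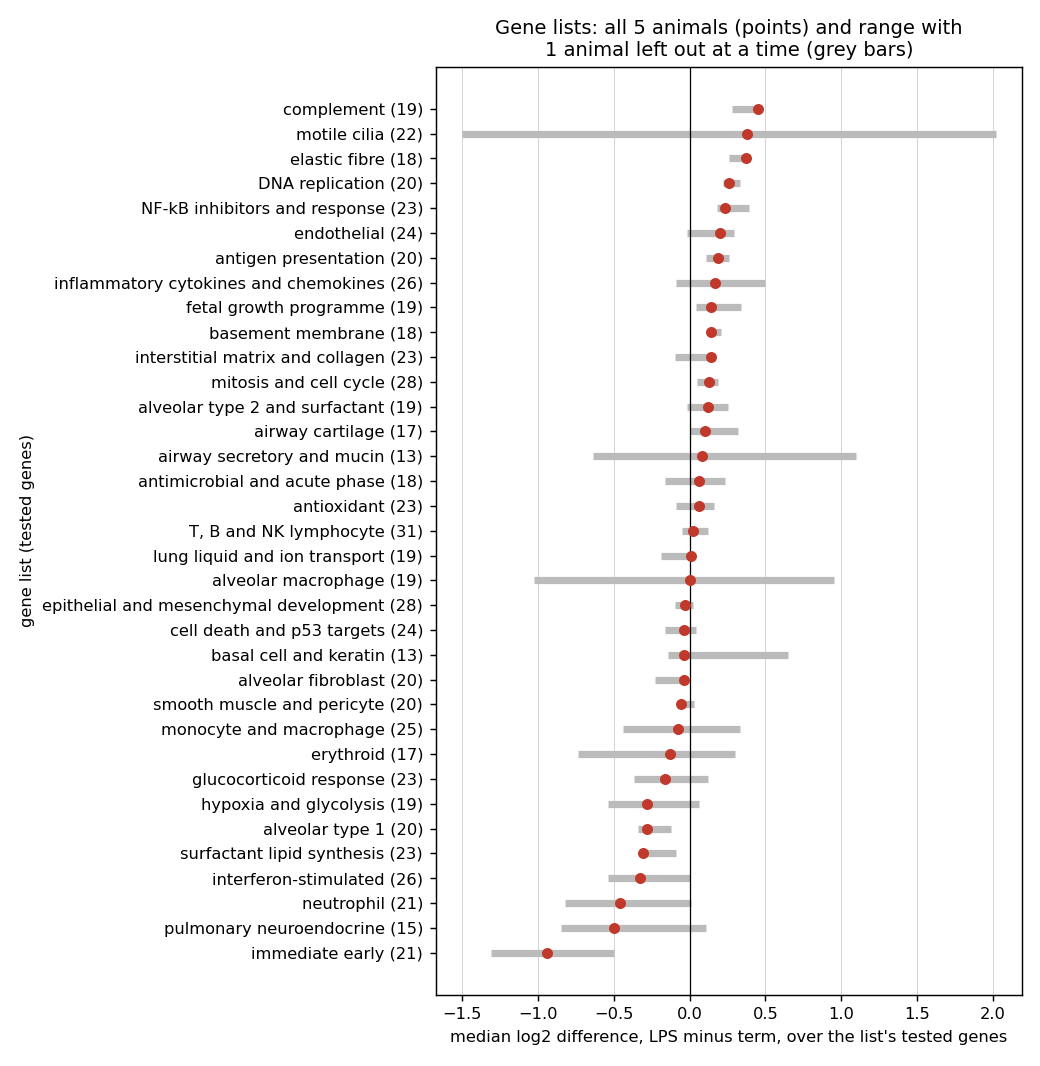
Points give the median log2 difference LPS minus term over the tested genes of each list, whose number stands in brackets, and grey bars the range of that median with 1 of the 5 animals left out at a time, without the Y-linked list. Complement, at 0.45, and immediate early genes, at -0.94, lie at the ends with bars that stay on their side of 0, while the bar of motile cilia runs from -1.50 to 2.02.

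No surfactant or type 2 cell gene was called, and the 95% intervals of SFTPB and ABCA3 stayed within 2-fold while those of SFTPA1, SFTPC, SFTPD and LAMP3 ran past it. The 19 tested genes of the list had a median of 0.12 (11 above and 8 below 0, none called). SFTPB, which spreads the surfactant film, had 4186, 7502 and 4821 CPM with LPS and 4577 and 3663 CPM at term, with a 95% interval of the log2 difference from -0.14 to 0.90. SFTPC had 5083, 7446 and 4990.3 CPM against 7546 and 6749 CPM, with an interval of -1.33 to 0.70. Both genes overlapped between groups. SFTPA1 had the widest interval of the surfactant proteins, -1.38 to 1.63, and it may share reads with its near-identical copy SFTPA2, so its level is uncertain. ABCA3, the lipid pump of lamellar bodies, was at 369, 604 and 402 CPM against 324 and 332 CPM, with an interval of -0.04 to 0.94.

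SFTPD, a surfactant collectin that binds microbes, lay above term in each LPS animal, at 1998, 2739 and 2079 CPM against 1231 and 1488 CPM, and so did MUC1, a mucin of the epithelial surface, at 319, 390.1 and 348 against 255 and 208 CPM. Neither was called (log2 differences 0.73 and 0.61, adjusted p = 0.323 and 0.155 by limma). ETV5, a transcription factor that maintains type 2 cells, was lower in all LPS animals, at 58.7, 98 and 80.7 against 139.7 and 128 CPM, with a preterm mean of 161 CPM. LAMP3, another marker of lamellar bodies, had an interval of -2.01 to 0.24.

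Genes of lipid synthesis for surfactant lay below term more often. Of 23 tested genes, 16 were below 0 and 7 above, with a median of -0.31 (-0.32 to -0.18 with 1 other animal left out, -0.09 without term control 200, -0.39 with library totals alone) and none called. In 10 of the 23 all LPS animals lay below both term controls, against 16.5% of all genes. INSIG1, a sterol sensor of the endoplasmic reticulum, had 11.9, 20.9 and 16.6 CPM with LPS and 46.5 and 34.7 CPM at term (log2 difference -1.32, adjusted p = 0.18 by limma). SCD, which makes monounsaturated fatty acids, had 23.1, 36.6 and 33.7 CPM against 71.2 and 65.8 CPM (log2 difference -1.16, adjusted p = 0.203 by limma). HMGCS1 and SQLE, enzymes of cholesterol synthesis, had differences of -0.85 and -0.78. All 4 genes were lowest in LPS animal 239. The key enzyme of phosphatidylcholine synthesis, PCYT1A, was at 91.8, 89.1 and 89.3 CPM against 92.8 and 90.7 CPM, and FASN, the fatty acid synthase, overlapped between groups.

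Type 1 cell genes were below 0 in 15 of 20 cases, with a median of -0.28 (-0.34 to -0.12 with 1 animal left out, the smallest without term control 200) and none called. AGER, the defining marker of type 1 cells, had 1786, 1039 and 740.1 CPM with LPS and 1982 and 1194 CPM at term, with an interval of -1.36 to 0.43. AQP5, the water channel of type 1 cells, had 121, 125 and 128 CPM against 228 and 135 CPM, with an interval of -1.71 to 0.72. In both genes the range at term was wide. Among genes of ion transport, which clears lung liquid at birth, SCNN1G, a subunit of the epithelial sodium channel, had 34.4, 24.3 and 28.1 CPM with LPS and 151 and 48.2 CPM at term (log2 difference -1.57, adjusted p = 0.181 by limma). Term control 201 lay nearer to the LPS animals in this gene than term control 200 did. The preterm mean of SCNN1G was 34.9 CPM. The subunit SCNN1A overlapped, with an interval of -0.32 to 0.73.

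**Figure D4:**
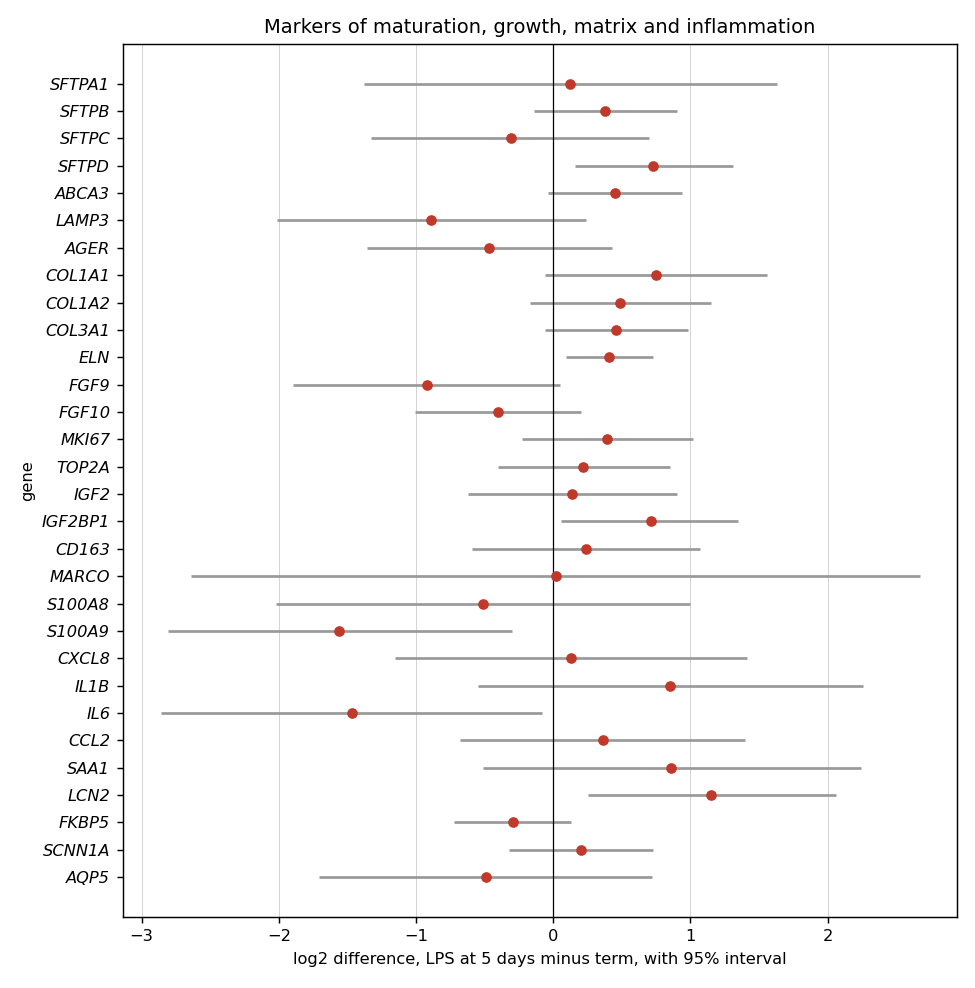
Points are fitted log2 differences LPS minus term of 30 marker genes and lines their 95% intervals. None of the 30 was called, and the interval lies off 0 in SFTPD, ELN, IGF2BP1 and LCN2 on the higher side and in S100A9 and IL6 on the lower side, before any adjustment for the number of genes.

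Genes of elastic fibres, which give the lung recoil, were above term in nearly the whole list. Of 18 tested genes, 17 were above 0, with a median of 0.37 that stayed between 0.26 and 0.40 with 1 animal left out, and none was called. ELN, elastin itself, had 1861, 1830.3 and 1527 CPM with LPS and 1371 and 1235 CPM at term, with a preterm mean of 2816 CPM (log2 difference from term 0.41, interval 0.09 to 0.73, adjusted p = 0.317 by limma). The LPS animals lay between the untreated groups. MFAP2, a microfibril protein, was at 89.1, 72.8 and 70.7 CPM against 56.9 and 38.9 CPM, and at 112 CPM in the preterm mean.

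The list of interstitial matrix and collagen genes had 23 tested genes and a median of 0.14, which was -0.10 without term control 200, -0.01 without LPS animal 240 and up to 0.17 otherwise. The fibrillar collagens COL1A1, COL1A2 and COL3A1 had log2 differences of 0.75, 0.49 and 0.46, overlapped between the groups and were not called. COL1A1 had 2537, 3965 and 1317 CPM with LPS and 1716 and 1155 CPM at term, with an interval of -0.06 to 1.56, COL1A2 an interval of -0.17 to 1.15 and COL3A1 one of -0.06 to 0.98. The preterm means of COL1A1, COL1A2 and COL3A1 were 4386, 3685 and 5849 CPM. In all of these collagens the LPS mean lay between the preterm and term means. LPS animal 242 lay within the term range in COL1A1, apart from the other LPS animals. POSTN, a matrix protein of growing connective tissue, was lower in all LPS animals, at 156, 137 and 227 CPM against 504 and 495 CPM, with a preterm mean of 340.1 CPM (log2 difference from term -1.56, adjusted p = 0.267 by limma). P4HA2, which hydroxylates collagen, had a difference of -0.75.

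In the basement membrane list, 13 of 18 genes were above 0, with a median of 0.14 and none called. COL4A5 and COL4A6, chains of collagen IV that lie side by side on the X chromosome, had 445, 456 and 534 CPM and 289, 343 and 305 CPM with LPS. At term they had 263 and 306 CPM and 164 and 164 CPM. Both were above term in all LPS animals (log2 differences 0.75 and 0.93, adjusted p = 0.181 and 0.162 by limma). COL4A3, a chain made by type 1 cells, went the other way, at 179, 170.5 and 133 against 240.2 and 251 CPM. MATN3, a matrilin of cartilage, was at 9.47, 10.9 and 10.2 CPM with LPS, 37.7 and 58 CPM at term and 36.6 CPM in the preterm mean (log2 difference from term -2.19, adjusted p = 0.11 by limma). It was the lowest of the 17 tested airway cartilage genes. Of these, 9 were above 0 and 8 below, with a median of 0.10 and a highest difference of 2.02.

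Cell division was near its term level. The 28 tested genes of mitosis had a median of 0.13 (18 above and 10 below 0, none called), beside -1.31 between LPS and preterm and -1.40 between term and preterm. MKI67, a marker of dividing cells, had 18.1, 16.8 and 14.9 CPM with LPS and 10.3 and 15.3 CPM at term, with an interval of -0.23 to 1.02, and 28.5 to 44.9 CPM in the preterm controls. Genes of DNA replication sat further above term, 17 of 20 above 0 with a median of 0.26 (0.22 to 0.33 with 1 animal left out). In 10 of the 20 all LPS animals lay above both term controls, against 14% of all genes. MCM5, a subunit of the replicative helicase, had 13.2, 15.7 and 10.7 CPM with LPS and 7.98 and 7.37 CPM at term, with a preterm mean of 14.1 CPM (log2 difference from term 0.76, adjusted p = 0.122 by limma). TYMS, which makes thymidylate, had 16.5, 13.5 and 15.4 CPM against 10.6 and 8.34 CPM.

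Genes of the fetal growth programme were 12 above and 7 below 0 of 19, with a median of 0.14. HMGA1, a chromatin protein abundant in fetal tissue, had 60.2, 62 and 48.3 CPM with LPS and 37.7 and 27.2 CPM at term (log2 difference 0.82, adjusted p = 0.116 by limma). IGF2BP1, a fetal RNA-binding protein, had 15, 20.5 and 16.6 CPM against 11.5 and 9.63 CPM. The preterm mean of IGF2BP1 was 10 CPM, at the term level, so its LPS animals lay above both untreated groups. IGF2, the fetal growth factor, overlapped, with an interval of -0.62 to 0.90. LIN28B was not among the genes tested. Among signalling genes of lung development, FGF18 and its receptor family member FGFR2 were above term in all LPS animals (log2 differences 0.82 and 0.68) and FGF7, SPRY1, BMP5 and FGF9 below it (-0.80, -0.91, -0.76 and -0.92). The 28 tested genes of this list had a median of -0.03 and none was called, and FGF10 overlapped, with an interval of -1.01 to 0.20.

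Immediate early genes, which cells transcribe within minutes of a stimulus, had the lowest median of the lists. Of 21 tested genes, 19 were below 0 and 2 above, with a median of -0.94 (-1.31 to -0.50 with 1 animal left out, -1.02 with library totals alone) and none called. The list median was -0.50 without term control 200, which had the highest mean log2 CPM of the list, 6.29, against 5.27 in term control 201 and 4.74, 4.40 and 5.38 in the LPS animals. LPS animal 242 was therefore slightly above term control 201. In 10 of the 21 genes all LPS animals lay below both term controls, against 16.5% of all genes.

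FOS, a subunit of the transcription factor AP-1, had 112, 43.8 and 441 CPM with LPS and 1579.9 and 587 CPM at term, with a preterm mean of 47.8 CPM (log2 difference from term -2.90, adjusted p = 0.433 by limma). FOSB, a relative, was at 22.2, 8.63 and 95.5 CPM against 402 and 103 CPM. The spread within each group was several-fold in both genes. KLF6 and JUND, a zinc finger factor and another AP-1 subunit, varied less: KLF6 had 83.3, 84.3 and 107 CPM with LPS and 226 and 146 CPM at term (adjusted p = 0.081 by limma), and JUND had 61.3, 66 and 65.4 CPM against 158 and 95.3 CPM (log2 difference -0.94). The preterm means of KLF6 and JUND were 122 and 57.7 CPM. The time from delivery to freezing is not given by animal in the sources used here, and its part in these values was not tested.

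**Figure D5:**
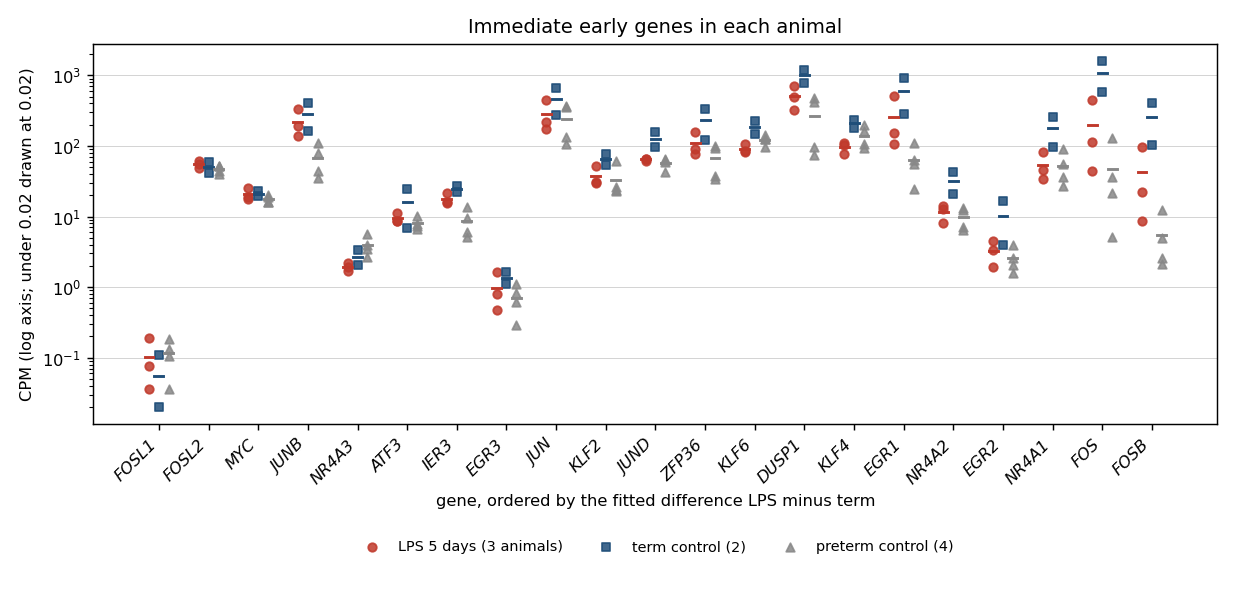
The TMM-scaled CPM of the 21 tested immediate early genes in each animal is drawn on a log axis, with group means as short bars and genes ordered from the highest to the lowest difference LPS minus term. Term control 200 lies at the top in most genes, with 1579.9 CPM of FOS, and LPS animal 242 is the highest LPS animal in most of those to the right.

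Genes that answer to glucocorticoid, the hormone that rises before birth, had a median of -0.16 over 23 tested genes. It was 0.12 without term control 200 and -0.37 without term control 201. TSC22D3, a direct glucocorticoid target, had 122, 132 and 116 CPM with LPS, 285 and 178 CPM at term and 141 CPM in the preterm mean (log2 difference from term -0.87, adjusted p = 0.21 by limma). FKBP5, another target, overlapped, with an interval of -0.72 to 0.13. Genes of hypoxia and glycolysis were below 0 in 15 of 19, with a median of -0.28. This median was 0.06 without term control 200 and -0.54 without term control 201. ANKRD37, a target of hypoxia-inducible factor, had 10.3, 6.98 and 9.11 CPM with LPS and 28.2 and 26.2 CPM at term (log2 difference -1.64, adjusted p = 0.225 by limma), and HK2, a hexokinase, lay above term at 85.5, 49.5 and 50.7 against 44.1 and 26.2 CPM.

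Genes of cell death and p53 targets were split evenly, 12 above and 12 below 0. BBC3, the proapoptotic protein PUMA, had 15, 11 and 8.87 CPM with LPS and 5.96 and 4.17 CPM at term, with a preterm mean of 5.08 CPM (log2 difference from term 1.18, adjusted p = 0.109 by limma). MDM2, the ligase that degrades p53, was lower in all LPS animals, at 64.5, 78.8 and 76.1 against 96.3 and 115 CPM. In alveolar fibroblasts, smooth muscle, lung ion transport, antioxidant, antimicrobial, basal cell, airway secretory and erythroid lists the medians lay between -0.13 and 0.08, and no gene of these lists was called. With term control 200 left out the medians were 1.10 for airway secretory, 0.65 for basal cell and -0.74 for erythroid genes, and with 201 left out they were -0.64, 0.06 and 0.30. Markers of neuroendocrine cells had a median of -0.50 over 15 tested genes at low levels, and airway cartilage genes one of 0.10. The neuroendocrine median was 0.11 with term control 200 left out and -0.85 with 201 left out. Over all lists, 715 genes were tested and 2 were called, C3 and CXCL13, beside 12 of 19199 (0.0625%) over all genes. The lists were chosen with earlier results of these data known, so the 2 counts were not compared.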

How the data were processed

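Poly(A)-selected lung RNA of 16 animals was sequenced as 75 bp paired-end reads. The authors used kallisto for assignment of reads, tximport for sums by gene and DESeq2 for their own comparisons, and per the labels the genome build was Mmul_10. What the authors deposited are counts, whole numbers for each Ensembl gene in each animal, with no normalization. Tool versions, the annotation release and any use of strand are not stated in the sources used here. Genes that overlap or are near-identical copies may therefore share reads.

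TMM scaling trimmed 30% of log ratios and 5% of levels. The log2 CPM, with a prior count of 2, were fitted with limma 3.58.1 (trend and robust options) in R 4.3.3 with 1 mean for each of 5 groups over 16 animals, leaving 11 residual degrees of freedom. The count model planned was not run, because the automatic check could not read the unit of the table. Of 22515 genes, 19199 were tested, those that reached 0.371 CPM in 2 or more animals and summed to 15 counts or more. Symbols were found for 17256 IDs, and 66 symbols belong to more than 1 ID. All p values are two-sided. Counting intervals are exact at 95%, and like the floor of 3 counts they cover counting error only. No 2 libraries were identical. The labels name no batch.

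Genes named are up to 15 called genes in each direction with a mean of at least 10 counts in both groups and no overlap, called genes at 0 in every animal of a group, called genes of the lists, a set of marker genes of which 30 were tested, and others chosen after their values were seen. The 36 lists hold 793 genes, written from general knowledge. The samples and lists were chosen with earlier results of these data known. Alternatives changed the scaling, the filter, the prior count, the variance model and the animals in the fit. The steps were tested on simulated data. The values of 1 gene of the complement list are not reported here.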

Additional observations from a re-analysis of the deposited data

Results flagged for a closer look

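In 5 of the 42 named genes, 1 of the 4 preterm controls stood apart from the other 3 by Dixon's criterion, which flags about 1 in 20 groups by chance. Preterm control 113 had the highest log2 CPM in S100A9 (2.96, with 1.72 to 1.86 in the others), TOP2A (5.97, with 5.21 to 5.33) and IL6 (-1.65, with -3.23 to -3.10). Preterm control 209 had the highest log2 CPM in CXCL13 (-2.81, with no count and -3.83 in the others) and the lowest in FGF10 (3.37, with 3.90 to 4.01). In CXCL13 the other 3 preterm controls had no count, so any count in 1 animal meets the criterion. The groups of 3 LPS animals and 2 term controls were not examined by this criterion.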

How the results depend on the processing

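The number of genes called higher with LPS was 6, and 2 with limma-voom, 2 with the 9 LPS, term and preterm animals, 0 with the 5 animals alone (2163 genes at an unadjusted p under 0.05) and 10 with no minimum on the fold. The number called lower was 6, and 10 with library totals alone and 0 with the 5 animals alone. With 1 animal left out, the counts ranged from 0 to 4 higher and from 0 to 7 lower, and the cause was not tested. Leaving out a term control leaves 1 term library, which is then assumed to vary like the other groups. The 12 called genes kept their sign in all 14 alternatives and lost their call in 83 of 168 refits. MARCO had a log2 difference of 0.02 and of -0.04 with library totals alone, and -2.64 to 2.67 with 1 animal left out. The sign also changed with 1 animal left out in CCL2 (-0.14 to 0.86), TOP2A (-0.27 to 0.72), SCNN1A (-0.14 to 0.55), S100A8 (-1.66 to 0.64), SFTPA1 (-0.35 to 0.59), IGF2 (-0.25 to 0.53), CXCL8 (-0.82 to 1.07) and IL1B (-0.04 to 1.75). List medians moved by more than the spread between animals in 40 of 504 refits, 27 of them without a term control. No paired analysis was possible because each library came from a different animal and each animal belonged to 1 group. The quasi-likelihood count model was not run.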
